A study of Mus musculus with 6 samples.

Results

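The genes described here encode 3 families of nuclear RNA-binding proteins that steer pre-mRNA splicing: the heterogeneous nuclear ribonucleoproteins (hnRNPs), the serine and arginine rich SR proteins and the RNA binding motif (RBM) proteins. Members were taken by name alone, as genes whose symbol starts with Hnrnp, with Srsf or with Rbm and a digit and that a probe set naming no other gene reads. This rule, chosen with earlier results of these data known, gave 65 of the 18193 genes named on the array. They were 19 Hnrnp, 10 Srsf and 36 Rbm genes, read by 186 probe sets. The Rbm genes include Rbm3os and Rbm46os, which by their symbols are transcripts opposite a family gene and not splicing factors. Hnrnpa3, Rbm3, Rbm4 and Rbm10 are read only by probe sets that also name another gene, and are not analysed here.

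SR proteins bind exonic enhancers and recruit the spliceosome, the machine that removes introns. Many hnRNPs coat pre-mRNA and silence exons, so that the balance of both kinds sets which exons are kept. In heart muscle RBM20 and RBM24 are known for controlling the splicing of sarcomere transcripts such as titin.

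The arrays hold RNA of E12.5 hearts of C57BL/6 mouse embryos, 3 labelled wildtype and 3 labelled Rhau KO, for which the series text gives a deletion of Rhau. Rhau is now called Dhx36 and encodes a helicase that resolves G-quadruplexes, which guanine-rich DNA and RNA can form. The labels give no allele, promoter or Cre line for the deletion, nor the sex of the embryos. Values are log2 of the MAS5 signal, 1 per probe set and array, on arrays scaled by the authors to a common 2% trimmed mean of 500 on the linear scale; the number of arrays limits the precision.

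Several facts of the arrays bear on every result. Dhx36 went against the labels: its signal was 8.99, 8.88 and 8.71 in replicates 1 to 3 labelled wildtype and 10.10, 10.48 and 10.23 in those labelled Rhau KO, a 2.66-fold higher level (limma, adjusted p = 1.46e-05). Its other tested probe sets were also higher under the Rhau KO label, by 1.10 and 0.90. Each passed when tested alone (limma, adjusted p = 2.31e-04 and 1.65e-04). The sources used here do not say whether any of these probe sets lies in the deleted part, so each group is named by the label it carries. The level of Y-linked genes, averaged as a percentage of the top array, was 1.23, 2.04 and 39.3 for wildtype-labelled and 59.6, 82.8 and 100 for Rhau KO-labelled replicates 1 to 3. Xist was also present in wildtype 3 and in Rhau KO 1 and 2, called arrays of mixed sex signal here. The series text gives 3 hearts a group. Whether each array holds RNA of 1 heart was not tested, and on the arrays of mixed sex signal it is in doubt. The p-values measure only the spread between the 6 arrays. Heart muscle markers were present on all arrays, with no marker at 0. Over all genes tested, 8.20% passed as higher under the Rhau KO label and 10.8% as lower. Of 10 cardiomyocyte markers 4 were lower, Nkx2-5 most at -1.29. Their summed linear signal was 244200 to 255500 in wildtype-labelled arrays and 211900 to 245100 in Rhau KO-labelled ones. Of 8 erythroid markers 7 were lower, with sums of 62120 to 67590 and 41570 to 54700, and of 10 endothelial markers 4 were higher, with sums of 12290 to 13390 and 14130 to 15500. Of 9 macrophage markers 2 were higher, Lyz2 by 2.98, with sums of 2837 to 3028 and 3887 to 4776. Of 6 epicardial markers 0 passed in limma (3 at an unadjusted p under 0.05), with sums of 10450 to 11860 and 9853 to 10310, and of 8 smooth muscle and mesenchyme markers 1 was lower, with sums of 59680 to 63450 and 55260 to 59020. The part of these cell types in the results below was not tested. Fewer cells of a type and less RNA per cell cannot be told apart in such bulk RNA.

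A small part of the splicing factors differed between the labels. Of 65 members 61 passed the filter on dim probe sets, which keeps a gene whose brightest probe set averages at least 5.90 over the 6 arrays. Of these, 5 were higher in the arrays labelled Rhau KO (Rbm20, Hnrnpul1, Rbm39, Rbm17 and Hnrnpa2b1) and 3 were lower (Rbm38, Hnrnpd and Hnrnpr), while 53 did not pass the test (limma, Benjamini-Hochberg adjusted p under 0.05 over all 12416 genes). That is 8.20% higher and 4.92% lower, beside 8.20% higher and 10.8% lower among all genes tested. With each array centred on its median the split was 2 higher and 4 lower, beside 4.28% higher and 14.9% lower of all genes. At the brightest probe sets of the 61 tested members the differences ran from -0.35 to 0.56 on the log2 scale. With a term for the level of Y-linked genes 0 members passed in limma, with 7 at an unadjusted p under 0.05 (beside 0.370% of all genes called higher and 1.06% lower), in a fit whose median SE of a member was 0.137 against 0.062 without it.

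**Figure D1:**
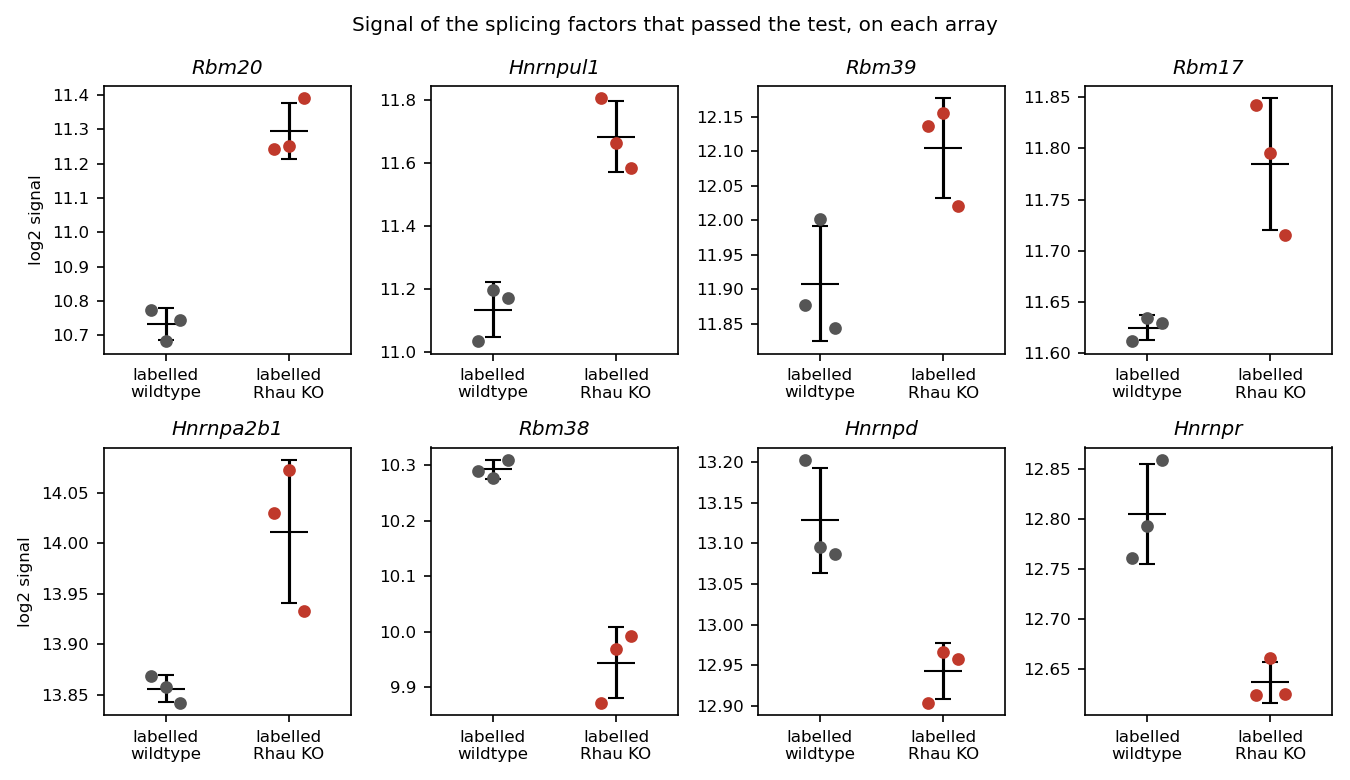
Log2 signal (y axis, a separate range in each panel) of the 8 splicing factor genes that passed the test, by label (x axis); each point is 1 array, and the horizontal bar and whiskers give the mean and SD of 3 arrays. For all 8 genes the arrays of one label lay above those of the other, with the widest gaps for Rbm20 and Hnrnpul1.

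Rbm20, the splicing repressor of titin and other heart muscle transcripts, had the largest difference among the brightest probe sets of the tested members. Its signal was 10.77, 10.68 and 10.74 in the arrays labelled wildtype and 11.24, 11.25 and 11.39 in those labelled Rhau KO. All 3 arrays labelled Rhau KO thus lay above all 3 labelled wildtype, and the gap between the groups was wider than the spread within either. The difference was 0.56 (SE 0.059), or 1.48-fold (limma, adjusted p = 1.38e-04), and the call was kept when any array was left out (0.51 to 0.59). With the term for Y-linked genes it stood at 0.44 (SE 0.129, limma adjusted p = 0.15). Over the 3 arrays of mixed sex signal (wildtype 3 against Rhau KO 1 and 2) the difference was 0.50. Without those arrays (wildtype 1 and 2 against Rhau KO 3) it was 0.66. In the latter set the Y-linked level was 1.23 and 2.04 under the wildtype label and 100 under the Rhau KO label. Label and sex signal cannot be told apart there.

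Hnrnpul1, an hnRNP U-like protein that also acts in the response to DNA breaks, was at 11.04, 11.20 and 11.17 in wildtype-labelled arrays and at 11.81, 11.66 and 11.58 in Rhau KO-labelled ones. The groups did not overlap, and the lowest array labelled Rhau KO exceeded the highest labelled wildtype. The difference was 0.55 (SE 0.069), a 1.46-fold higher level (limma, adjusted p = 4.24e-04), and leaving out any array gave 0.49 to 0.60 with the call kept. With the term for Y-linked genes it was 0.66 (SE 0.152, limma adjusted p = 0.0734). Its close relative Hnrnpul2 had values on the other side. The brightest Hnrnpul2 probe set read 11.36, 11.39 and 11.29 in wildtype-labelled arrays and 11.12, 11.29 and 11.11 in Rhau KO-labelled ones, a difference of -0.18 (SE 0.062) that did not pass (limma, adjusted p = 0.074). The other Hnrnpul2 probe set read 10.40, 10.41 and 10.33 against 9.85, 9.89 and 9.89, and with every probe set tested on its own it fell by 0.50 (SE 0.062, limma adjusted p = 6.06e-04). Hnrnpu itself, a scaffold protein of nuclear RNA and chromatin, differed by 0.030 at its brightest probe set.

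Rbm38, a regulator of muscle and red cell splicing and of mRNA stability, fell most among the brightest probe sets of the tested members. Its signal was 10.29, 10.28 and 10.31 under the wildtype label, an SD of 0.017, and 9.87, 9.97 and 9.99 under the Rhau KO label. No array of one label reached the range of the other. The difference of -0.35 (SE 0.063) was a 1.27-fold lower level with limma's adjusted p = 0.00353, kept when any array was left out (-0.37 to -0.31). It stood at -0.47 (SE 0.137, limma adjusted p = 0.15) with the term for Y-linked genes. In the same arrays the erythroid markers had a median of -1.06, and their part in the Rbm38 difference was not tested. Rbm24, the closest relative of Rbm38 and a splicing activator of striated muscle, had overlapping groups at 12.28, 12.37 and 12.40 against 12.33, 12.42 and 12.31. Its difference was 0.0050 (SE 0.053), and its other tested probe sets lay between -0.076 and 0.15 without a call.

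The remaining 5 genes that passed had small differences, the largest 1.15-fold (Rbm39). Rbm39, a U2AF-related coactivator of splicing, was at 11.88, 12.00 and 11.84 in wildtype-labelled arrays and at 12.14, 12.15 and 12.02 in Rhau KO-labelled ones (difference 0.20, SE 0.058, limma adjusted p = 0.0395). Rbm17, a splicing factor that helps choose the 3' splice site, was at 11.61, 11.63 and 11.63 against 11.84, 11.80 and 11.72 (0.16, SE 0.050, limma adjusted p = 0.0498). The mean of the Rbm17 probe sets, one of them under the filter, turned to -0.040 (limma, adjusted p = 0.881). Hnrnpa2b1, an abundant hnRNP that also binds and sorts RNA in the cytoplasm, was at 13.87, 13.86 and 13.84 against 14.03, 14.07 and 13.93 (0.16, SE 0.047, limma adjusted p = 0.042). In each of these genes the groups were separate, though for Rbm39 the nearest arrays were 12.00 and 12.02. Hnrnpd, known as AUF1 and a regulator of mRNA decay through AU-rich elements, was at 13.20, 13.10 and 13.09 in wildtype-labelled arrays and 12.90, 12.97 and 12.96 in Rhau KO-labelled ones (-0.19, SE 0.048, limma adjusted p = 0.0221). Hnrnpr, a relative of the RNA-binding protein Syncrip, was at 12.76, 12.79 and 12.86 against 12.62, 12.66 and 12.63 (-0.17, SE 0.045, limma adjusted p = 0.0269). These calls rest on all 6 arrays: of the 6 fits that leave out 1 array, Rbm17 and Hnrnpa2b1 passed in 1, both without replicate 3 labelled Rhau KO, Hnrnpr and Rbm39 in 2 and Hnrnpd in 3. Limma's adjusted p over those fits reached 0.151 for Rbm17, 0.131 for Rbm39, 0.122 for Hnrnpa2b1, 0.102 for Hnrnpr and 0.0994 for Hnrnpd.

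Promoter sequence of the genes that passed is shown because the labelled helicase acts on guanine-rich runs. RefSeq promoters of GRCm38.p6 were found for 56 of the 65 members, and 72 start sites of these genes were searched in the 250 bases before the start for 4 runs of GGG, each 1 to 7 bases (N) from the next, on both strands. A match was found at 14 of the 72 starts, 19.4%, against 16.7% of all 32851 starts in the table. By gene, 9 of the 56 members had a match (16.1%, against 18.5% of all genes): Hnrnpa0, Hnrnpd, Hnrnpf, Hnrnph1, Hnrnpul1, Rbm11, Rbm14, Srsf4 and Srsf10. Of the 8 genes that passed the test 7 were in the table and 2 had a match, Hnrnpul1, which was higher, and Hnrnpd, which was lower at its brightest probe set. The 250 bases before the start are given 5' to 3' on the gene's strand for these genes and for Rbm38, which had no match, with the matched stretch in capitals (C runs are G runs of the other strand). They lie at chr7:25754760-25755009 (minus strand), chr5:99978939-99979188 (minus strand) and chr2:173021652-173021901 (plus strand), with a G and C content of 61.6%, 74.4% and 61.6%.
Hnrnpul1: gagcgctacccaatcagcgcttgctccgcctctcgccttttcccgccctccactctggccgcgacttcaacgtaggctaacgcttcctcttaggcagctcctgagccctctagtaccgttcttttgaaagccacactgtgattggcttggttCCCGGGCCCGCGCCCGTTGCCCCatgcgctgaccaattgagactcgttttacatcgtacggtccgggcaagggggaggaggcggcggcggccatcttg
Hnrnpd: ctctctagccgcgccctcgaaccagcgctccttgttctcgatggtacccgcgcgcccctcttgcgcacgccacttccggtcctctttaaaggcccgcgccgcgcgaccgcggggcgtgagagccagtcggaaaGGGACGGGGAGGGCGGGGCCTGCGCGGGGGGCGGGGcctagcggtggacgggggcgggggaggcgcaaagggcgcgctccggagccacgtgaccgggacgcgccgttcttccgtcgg
Rbm38: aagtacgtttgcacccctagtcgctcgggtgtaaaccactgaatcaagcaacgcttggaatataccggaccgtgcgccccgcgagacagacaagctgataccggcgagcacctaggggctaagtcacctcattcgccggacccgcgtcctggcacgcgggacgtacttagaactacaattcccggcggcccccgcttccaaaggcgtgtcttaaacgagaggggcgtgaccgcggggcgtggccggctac
A match is a description of these letters, and nothing here measured a structure or binding there.

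Among the hnRNP genes, 2 of 19 were higher and 2 lower, and 15 did not pass. That is 10.5% each way, beside 8.20% higher and 10.8% lower of all genes tested. Their median difference was 0.022 beside 0.011 over all genes tested. Hnrnpk, a KH-domain protein, was at 13.92, 13.97 and 13.83 in wildtype-labelled arrays and at 13.91, 13.98 and 13.89 in Rhau KO-labelled ones, a difference of 0.022 (SE 0.050). Hnrnpa1, the exon silencer that often opposes SR proteins, was at 12.36, 12.42 and 12.44 against 12.60, 12.47 and 12.54, a difference of 0.13 (SE 0.049) whose groups were apart but which did not pass (limma, adjusted p = 0.0946). Hnrnpc, which binds uridine tracts, differed by 0.044, and Hnrnpf and Hnrnph1, which bind G runs and are thus members whose known motif is guanine-rich, by 0.022 and -0.024. Their relatives Hnrnph2 and Hnrnph3 were at 0.086 and 0.11 without a call.

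Among the SR protein genes 0 of 10 passed in limma, and 4 of 10 had an unadjusted p under 0.05. In 5 of the 10, Srsf1, Srsf2, Srsf3, Srsf6 and Srsf11, every array labelled Rhau KO lay above every array labelled wildtype; over all genes such a separation was found in 18.4%. Their differences were small, from 0.076 for Srsf6 to 0.15 for Srsf1, and the median of the 10 genes was 0.089. Srsf1, the founding SR protein that activates many exons, was at 13.32, 13.39 and 13.46 against 13.46, 13.69 and 13.47 (0.15, SE 0.066, limma adjusted p = 0.137). Srsf3, the smallest SR protein and a link to mRNA export, was at 13.17, 13.16 and 13.11 against 13.21, 13.20 and 13.38 (0.11, SE 0.054, limma adjusted p = 0.172). Srsf2, an SR protein that stays in the nucleus, was at 12.88, 13.00 and 13.05 against 13.18, 13.08 and 13.06, where the nearest arrays of the labels were almost level. Srsf10 had the largest value of the family, 0.45 (SE 0.152), but its groups overlapped at 10.64, 11.05 and 11.18 against 11.45, 11.67 and 11.09 (limma, adjusted p = 0.0656), and its other 3 probe sets differed by -0.040, -0.0089 and 0.047. Quantile normalization brought Srsf2 and Srsf3 past the threshold. With each array centred on its median, the median of the 10 genes was 0.020, beside -0.058 for all genes. Srsf1, Srsf2 and Srsf3 were then at 0.084, 0.061 and 0.045 without a call.

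Among the RBM genes 3 of 32 tested were higher, 1 was lower and 28 did not pass, with a median of 0.082. That is 9.38% higher and 3.12% lower, beside 8.20% and 10.8% of all genes tested. Of 10 members that act with the spliceosome itself, 9 had values above 0 (90.0%, beside 51.9% of all genes). Of the 10, 2 passed as higher, Rbm17 and Rbm39 (20.0%). With each array centred on its median neither passed, at 0.091 and 0.13 (limma, adjusted p = 0.333 and 0.216). Rbm5, a regulator of apoptosis gene splicing, differed by 0.023 (SE 0.053) and Rbm8a, a core protein of the exon junction complex, by 0.060 (SE 0.050). Rbm6 was at 9.62, 9.39 and 9.77 against 9.79, 9.87 and 10.42, where replicate 3 labelled Rhau KO stood apart; its difference of 0.44 did not pass (limma, adjusted p = 0.0696) and was 0.24 without that array. Rbm15, an adaptor of the enzyme that methylates adenosine in mRNA, was at 9.21, 9.52 and 9.35 against 9.76, 9.31 and 9.43, with overlapping groups and a difference of 0.14 (SE 0.121). Of 19 other RBM genes of RNA processing 0 passed in limma, with 4 at an unadjusted p under 0.05, and their values ran from -0.18 for Rbm19 to 0.37 for Rbm4b. The 4 members under the filter were Rbm11, Rbm47, Rbm3os and Rbm46os, with mean signals between 3.98 and 5.63 in either group. Rbm46os was at 5.27, 5.89 and 5.62 against 4.17, 5.05 and 4.36, below the level where a test was made.

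**Figure D2:**
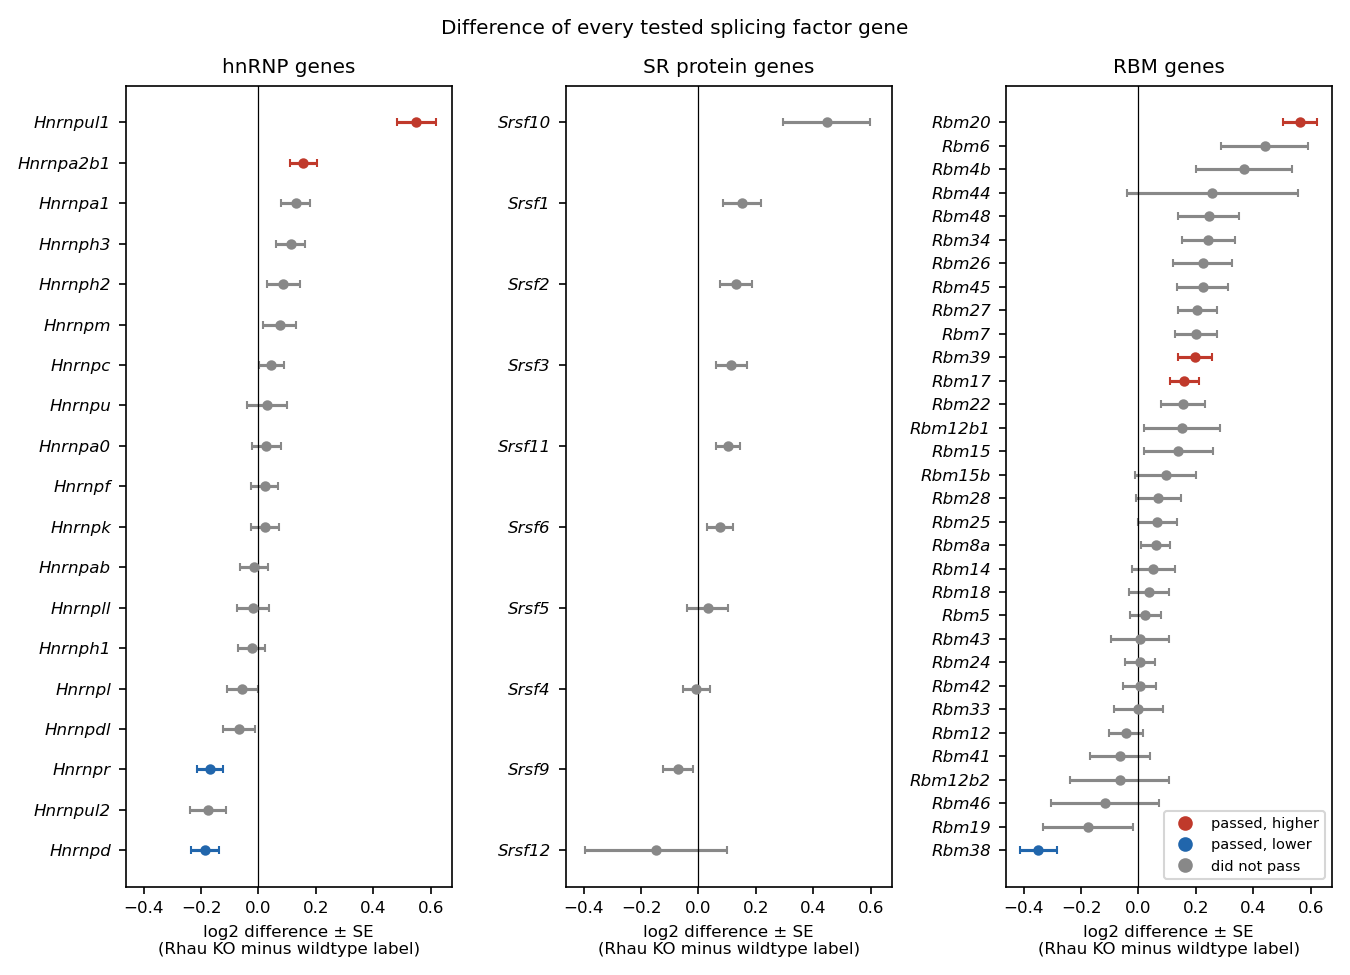
Log2 difference (x axis, Rhau KO label minus wildtype label, with SE from the limma fit) of the 61 tested splicing factor genes (y axis), split into hnRNP, SR and RBM genes; red and blue mark genes that passed as higher or lower. Most points lie between -0.19 and 0.26, and 43 of 61 lie above 0.

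Taking sign alone, with no test, 43 of the 61 members had a value above 0 (70.5%, beside 51.9% of all genes), and their median was 0.060 against 0.011 over all genes. Centring each array on its median moved both down together, to -0.0093 for the members and -0.058 for all genes, so the sign of the members' median depends on the scaling, while it lay above the median of all genes on both scales. Groups were apart in 16 members as higher (26.2%, beside 18.4% of all genes) and in 4 as lower (6.56%, beside 18.7%).

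Most splicing factors are read by several probe sets, and these often did not move as 1. Among 40 members with at least 2 tested probe sets, 24 had probe sets on both sides of 0, beside 44.2% of the 5973 such genes of the series. With each of 173 member probe sets tested on its own, 19 were higher and 4 lower (11.0% and 2.31%, beside 6.80% and 7.84% of all probe sets). Of the 112 that are not the brightest of their gene, 17 were higher and 1 was lower (15.2% and 0.893%, beside 6.51% and 5.31% of all such probe sets). Probe sets of 1 gene are not independent. The 19 higher ones read 12 genes, with several from Rbm39 and from Srsf1, and the 4 lower ones read 4 genes. The members' dimmer probe sets had a median difference of 0.12, and those of all genes 0.050.

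Hnrnpd and Hnrnpr passed in both directions. The brightest Hnrnpd probe set was lower, as above, while a dim one read 6.55, 6.49 and 6.12 in wildtype-labelled arrays and 6.87, 7.15 and 7.56 in Rhau KO-labelled ones (0.80, SE 0.228, limma adjusted p = 0.0399). The third Hnrnpd probe set differed by 0.12 without a call. For Hnrnpr the brightest probe set was lower and another read 8.64, 8.42 and 8.25 against 8.76, 9.05 and 9.26 (0.58, SE 0.142, limma adjusted p = 0.0208), with its other 3 at -0.036, -0.025 and 0.30. No array overlapped between the labels on any of these 4 probe sets that passed. Only 23 of the 5973 genes with several tested probe sets passed in both directions, 0.385%. These 2 members are 5.0% of the 40, which were not matched to those genes in probe sets per gene. So the call of Hnrnpd and Hnrnpr as lower holds for the brightest probe set and not for the gene. Which transcripts each probe set reads was not tested.

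Rbm39 had the most probe sets, 12, of which 6 passed as higher and 0 as lower when each was tested alone. The largest of these read 9.40, 9.43 and 9.29 in wildtype-labelled arrays and 9.90, 9.90 and 9.96 in Rhau KO-labelled ones, with little spread in either (0.55, SE 0.073, limma adjusted p = 9.36e-04). The brightest Rbm39 probe set had limma's adjusted p = 0.052 in this fit, and 4 others lay between -0.12 and -0.016. The brightest probe sets of Hnrnpa2b1 and Rbm17 did not pass in this fit either (limma, adjusted p = 0.0522 and 0.0659). A dimmer Hnrnpa2b1 probe set passed as higher (0.19, limma adjusted p = 0.0459). Srsf1, which had no call at its brightest probe set, had 3 others that passed, at 0.19, 0.25 and 0.26, and all 6 tested were above 0. A dimmer probe set also passed for Hnrnpab, an activator and repressor of transcription as well as a splicing factor (0.26), for Hnrnpf (0.28), for Hnrnpu (0.27), for Rbm25, a regulator of the U1 snRNP (0.35), and for Srsf3 (0.25). In all, 6 members without a call in the fit over genes had another probe set that was higher, and 1, Hnrnpul2, had another that was lower.

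**Figure D3:**
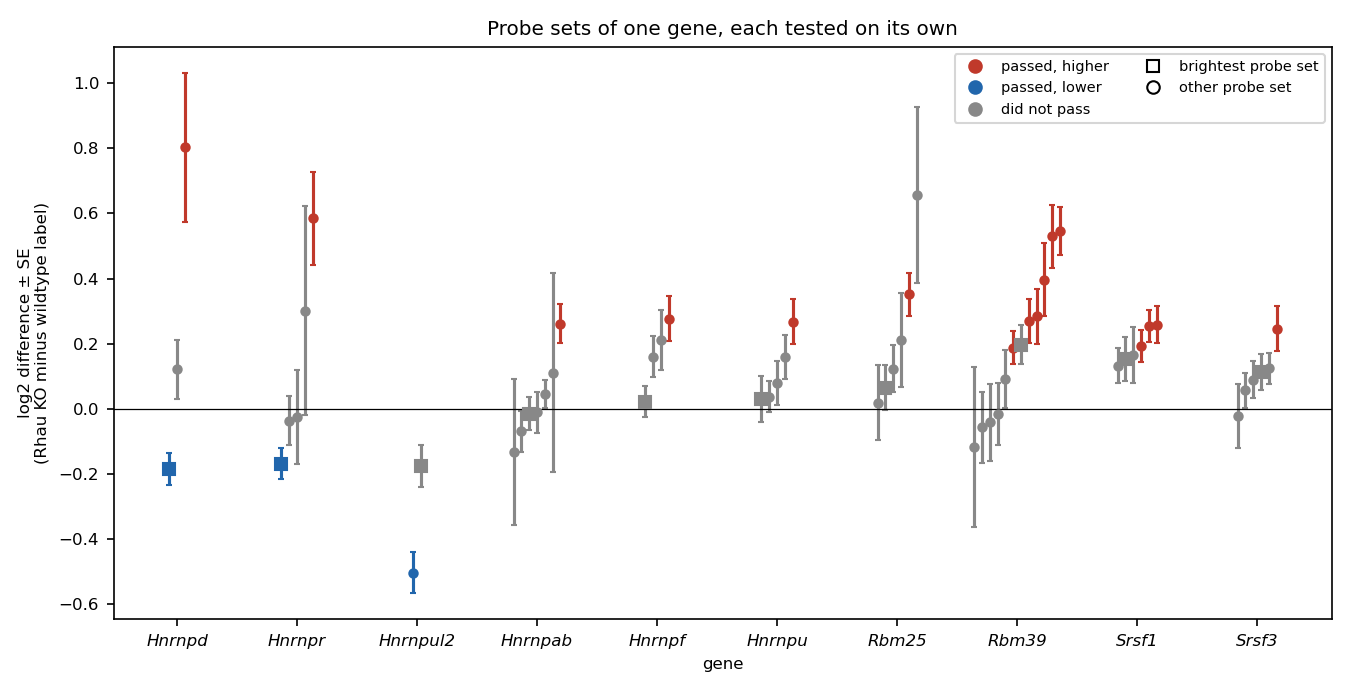
Log2 difference (y axis, Rhau KO label minus wildtype label, with SE) of each tested probe set of 10 splicing factor genes (x axis), every probe set fitted on its own; squares are the brightest probe set of a gene, circles the others, and red and blue mark those that passed as higher or lower. Hnrnpd and Hnrnpr have a blue square and a red circle, and Rbm39 has 6 red circles among its 12 probe sets.

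The other genes of splicing, taken from lists of 168 genes of which 147 were tested, showed 27 higher and 8 lower (18.4% and 5.44%), with a median of 0.091, beside 8.20% higher and 10.8% lower of all genes tested. Centred on the array medians these were 12 higher and 11 lower, beside 4.28% and 14.9% of all genes. SR-related proteins, which share the serine and arginine rich domain with the Srsf proteins, had 6 higher and 3 lower of 19 (2 and 3 when centred): Pnn, a nuclear speckle protein, rose 1.54-fold (0.62, limma adjusted p = 0.00103; 0.30 with its probe sets averaged), and Tra2a, a splicing activator, was at -0.41 but at 0.22 without a call when its probe sets were averaged. Of 9 SR protein kinases 1 was higher, Srpk2 at 0.31, which lost its call when probe sets were averaged. RNA-binding proteins close to the hnRNPs had 7 higher and 0 lower of 23 (4 and 0 when centred), among them Rbmx, the X-linked hnRNP G, at 0.43; its call was lost (0.16) when its probe sets were averaged.

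Core spliceosome proteins had calls in both directions, beside 8.20% higher and 10.8% lower of all genes tested (4.28% and 14.9% when centred). The shares were 21.1% higher and 10.5% lower for U1 and U2 snRNP proteins and 8.33% higher for Sm and LSm proteins. They were 5.88% lower for U4, U5 and U6 snRNP proteins. For the Prp19 complex and catalytic steps they were 18.2% higher and 4.55% lower. U1 and U2 snRNP proteins had 4 higher and 2 lower of 19 (0 and 2 when centred, and also without replicate 2 labelled wildtype), with U2af2, which reads the polypyrimidine tract, at -0.33; Sm and LSm ring proteins had 1 higher of 12, Snrpf at 0.45; U4, U5 and U6 snRNP proteins had 1 lower of 17, Snrnp27 at -0.33. Proteins of the Prp19 complex and of the catalytic steps had 4 higher and 1 lower of 22 (0 and 2 when centred, and 0 higher without replicate 1 or 3 labelled wildtype or replicate 2 labelled Rhau KO), the latter being Dhx15, a DEAH-box helicase that takes spliceosomes apart, which fell 1.54-fold from 13.60, 13.64 and 13.70 to 13.00, 13.09 and 13.00 (limma, adjusted p = 1.59e-05). The exon junction complex and decay factors had 1 lower of 7 (14.3%, and 2 when centred), Upf2 at -1.20, which did not pass when its probe sets were averaged (-0.52). Tissue regulators had 4 higher (21.1%) and 0 lower of 19 (4 and 1 when centred). Of the 19, 9 lay below 0, and the median was 0.068 (-0.0007 when centred). Nova1, a neuronal splicing factor, was at 0.60 but at -0.82 without a call when its probe sets were averaged. Mbnl3 was at 0.47. In the same arrays 3 of 5 neural crest and neuronal markers were higher. The summed signals of these markers were 2942 to 3057 in wildtype-labelled arrays and 4555 to 4769 in Rhau KO-labelled ones. Their part in the values of the tissue regulators was not tested.

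Genes whose transcripts RBM20 is known to splice had 2 higher and 2 lower of 15 tested (1 and 3 when centred). That is 13.3% each way, beside 8.20% higher and 10.8% lower of all genes tested. The median of the 15 was -0.048, in arrays where Rbm20 itself was 1.48-fold higher. Mlip, a lamin-interacting protein of muscle, was at 0.35 and Camk2d, a calcium-dependent kinase, at 0.31, while Ldb3, a Z-disc protein, was at -0.41 and Ryr2, the calcium release channel, at -0.26. Of these only Ldb3 kept its call when probe sets were averaged. Ttn was at -0.071 without a call. These are signals of 3' ends, so they carry no measure of exon inclusion, and splicing itself is not analysed here.

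**Figure D4:**
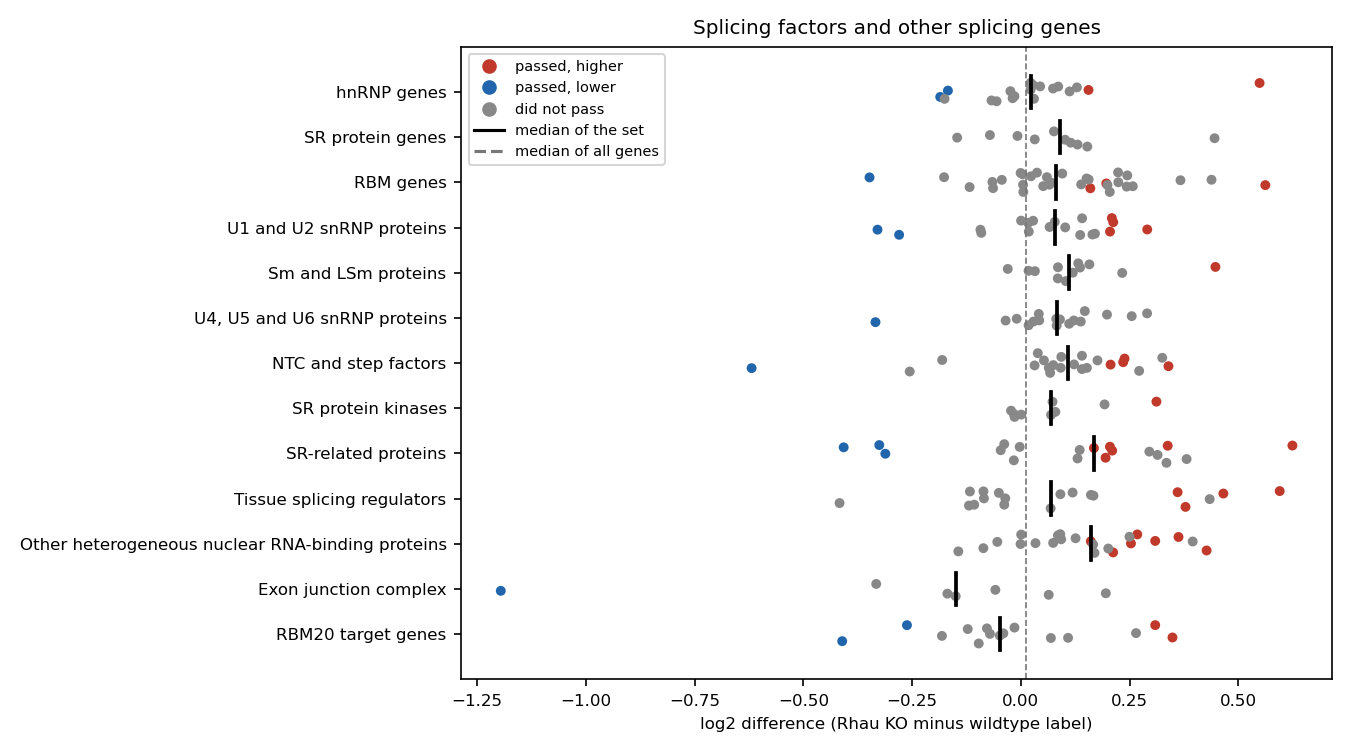
Log2 difference (x axis, Rhau KO label minus wildtype label) of tested genes in the 3 families and in 10 other splicing gene sets (y axis); each point is 1 gene, red and blue mark genes that passed as higher or lower, black bars are set medians and the dashed line is the median of all genes, 0.011. Set medians lie to the right of the dashed line except for the exon junction complex (-0.15) and the RBM20 target genes (-0.048); with each array centred on its median, all genes have a median of -0.058.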

How the data were processed

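Biotin-labelled RNA of E12.5 mouse hearts was hybridised to Affymetrix 3' expression arrays, per the labels' protocols and 1 for each sample. The table used here holds deposited log2 values that the authors made with MAS5, per the submitters' processing notes (version not given in the sources used here); linear 2% trimmed means were 500 on every array, so arrays had been scaled globally. Values were used as deposited, with no pseudocount. All 6 columns were matched to samples.

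Of 45101 probe sets 64 controls were left out; 34945 name 1 gene, 932 several and 9160 none, per the platform annotation, and 34741 were matched by Entrez identifier to the RefSeq table of GRCm38.p6. A gene is its probe set of highest mean; genes in the lowest 40% of probe sets were left out. The 3 arrays of each label were compared with limma 3.58.1 in R 4.3.3 (lmFit, eBayes with trend), two-sided, Benjamini-Hochberg adjusted over 12416 genes, or over 22796 probe sets where each was tested alone. The procedure was tested on simulated arrays. Same-numbered arrays did not deviate together (correlations of -0.012, 0.045 and 0.013), so no block was used. Arrays of one label differed at 44993 probe sets or more.

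Members and lists were chosen with earlier results of these data known. Named are Dhx36, all members that passed, a fixed set of members, members with probe sets passing in both directions and, per list, up to 3 called genes a direction; other members are named as values. Tables were made with Python 3.11.15 and pandas 2.3.3, plots with matplotlib 3.10.9.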

Additional observations from a re-analysis of the deposited data

How the results depend on the processing

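Every member count comes from 3 arrays a label, and the counts moved with the processing. The 5 higher members became 8 with quantile normalization, 2 with median centring, 2 with no filter and 2 with eBayes without trend. The 3 lower members became 4 with median centring and 1 with eBayes without trend. The members' median difference was 0.050 over the 3 arrays of mixed sex signal and 0.086 without those arrays. That of all genes was -0.0060 and 0.021. Each of these sets holds only 1 array of a label, so calls are not counted there. In both sets the Y-linked level was higher under the Rhau KO label. Leaving out 1 array gave 2 to 8 higher members (2 without replicate 1 or 3 labelled wildtype, 8 without replicate 3 labelled Rhau KO) and 1 to 4 lower (1 without replicate 2 labelled wildtype or replicate 1 labelled Rhau KO). With the term for Y-linked genes 0 and 0 passed (limma, 7 at an unadjusted p under 0.05). Pseudocounts of 1 and 64, array weights and the lowest 60% left out each gave 5 and 3, with the same 8 genes. With the replicate number as a block, which did not pair the arrays, 5 and 3 passed, 6 of them shared. Averaging all probe sets gave 5 and 2, of which 3 shared. It turned Hnrnpd to 0.25, Hnrnpr to 0.13 and Rbm17 to -0.040. Other probe sets turned Hnrnpd to 0.12 and 0.80, Hnrnpr to 0.30 and 0.58, and Rbm39 to -0.041, -0.12, -0.016 and -0.056. The cause was not tested. Rbm20, Hnrnpul1 and Rbm38 passed under every alternative run that kept at least 2 arrays of each label, except the Y-linked covariate. These 3 were also the calls shared under averaging. Each is read by 1 probe set alone, so averaging could not change its difference and is no check on it.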
